A study of Mus musculus with 16 samples.

Results

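Hepatocytes grown with Phgdh wild-type cancer cells and a CXCR2 inhibitor (WT co-cultures with CXCR2i, n = 3 libraries) were compared by RNA sequencing with hepatocytes grown alone (n = 3). These are 6 of the 16 libraries of the series, taken by their labels. The table held 54532 mouse genes. The 11395 genes with a mean of at least 1 FPKM over the 16 libraries were tested, and the other 43137 fell below this filter on low values. FPKM is the number of fragments per kilobase of gene, relative to the fragments of the library (the usual scaling to mega-fragments, M).

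The hepatocytes are labelled as a cell line, mouse hepatocytes, with no strain, sex, clone or passage. The cancer cells are named HY19636 in the study's design text, which also says that the cancer cells were the material sequenced. By the sample labels every library came from hepatocytes, and the labels were followed here. The series concerns serine passed by hepatocytes to pancreatic cancer cells in the liver. Phgdh, the gene deleted in the KO cancer cells, encodes the first enzyme of serine synthesis. Further groups served as controls for the main comparison. They were WT co-cultures without inhibitor (n = 3) and co-cultures of hepatocytes with Phgdh KO cancer cells and CXCR2i (KO co-cultures with CXCR2i, n = 4). KO co-cultures without inhibitor (n = 3) were not compared. They entered the estimate of the spread, the filter on low values and the means over libraries without the inhibitor. No group had the inhibitor without cancer cells, so effects of the inhibitor and of the cancer cells cannot be told apart between WT co-cultures with CXCR2i and hepatocytes alone. Dose, duration, vehicle, batch and the format of the culture are not in the labels, which also do not say whether replicates were separate cultures. The p-values then measure only the spread between these libraries, which may be technical. Both cell types are from mice, so RNA carried over from cancer cells could not be separated by species, and fewer cells of a type cannot be told apart from less RNA per cell.

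As background, CXCR2 is a receptor for CXC chemokines such as Cxcl1, Cxcl2 and Cxcl5, and is best known on neutrophils. Type I interferons bind the receptor pair Ifnar1 and Ifnar2. The receptor then acts through transcription factors that include Stat2 and Irf9 on a set of antiviral genes. Hepatocytes make most plasma proteins, dispose of ammonia through the urea cycle and break down amino acids such as tyrosine.

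The libraries of WT co-cultures with CXCR2i held between 15 and 17.1 M fragments recovered from the FPKM values, against 16.4 to 21.0 M in hepatocytes alone. At these depths 1 fragment on a gene of 1 kb was worth 0.0569 to 0.0648 FPKM in WT co-cultures with CXCR2i and 0.0489 to 0.0627 FPKM in hepatocytes alone. Mitochondrially encoded genes took 1.86 to 2.11% of the fragments in WT co-cultures with CXCR2i and 3.41 to 3.79% in hepatocytes alone. The 50 most abundant genes took 12.2 to 12.4% in WT co-cultures with CXCR2i and 14.1 to 14.4% in hepatocytes alone. At least 1 fragment fell on 18630 to 18923 genes in WT co-cultures with CXCR2i and on 17469 to 17812 in hepatocytes alone.

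The hepatocyte label was checked against 25 marker genes, of which 7 fell below the filter. The markers summed to 1005 to 1012 FPKM in WT co-cultures with CXCR2i and to 329 to 334 FPKM in hepatocytes alone. Hepatocytes alone expressed the transcription factor Hnf4a at 45.9 to 47.7 FPKM and Alb at 55.0 to 58.4 FPKM. Markers of mature liver were near the limit of detection there: Cyp2e1 was at 0.0271 to 0.159 FPKM, Hpd at 0.0589 to 0.115 FPKM, and Nr1i3 was detected in 1 of the 3 libraries. The same libraries held the biliary and progenitor genes Spp1, at 1010 to 1020 FPKM, and Krt19, at 95.1 to 99.9 FPKM. The 11 cholangiocyte markers, these 2 among them, summed to 574 to 585 FPKM in WT co-cultures with CXCR2i and to 1246 to 1267 FPKM in hepatocytes alone. Of the 6 that passed the filter, 3 rose and 3 fell by the test given in the next paragraph. Of the 12 stellate cell and fibroblast markers, the 8 endothelial markers and the 8 neutrophil markers, none passed the filter. Their sums in WT co-cultures with CXCR2i, against hepatocytes alone, were 0.207 to 0.220 against 0.198 to 0.351 FPKM, 0.0707 to 0.173 against 0.0201 to 0.0546 FPKM, and 0 to 0.275 against 0.211 to 0.422 FPKM. The 1 macrophage marker of 12 above the filter, the lysosomal protein gene Cd68, averaged 4.96 ± 0.71 FPKM in WT co-cultures with CXCR2i and 0.690 ± 0.448 FPKM in hepatocytes alone (SD, n = 3 each). Of 18 markers of pancreatic ductal cancer epithelium, 8 passed the filter. By the same test 6 of these rose, 2 at least 2-fold, 1 fell and 1 did not pass (median log2 fold change 0.76). Over all tested genes 32.1% rose and 34.7% fell. Without 1 riser that passed the filter only through the groups with the inhibitor, 5 of 7 rose and 1 fell. The 18 summed to 1098 to 1264 FPKM in WT co-cultures with CXCR2i and to 1258 to 1358 FPKM in hepatocytes alone, where no cancer cells are labelled. Krt17, Tff1, Tff2 and Agr2 were at 0 in all 6 libraries. Msln, which encodes mesothelin, was at 399.4, 421 and 396.4 FPKM in WT co-cultures with CXCR2i and already at 204.6, 203.9 and 193.5 FPKM in hepatocytes alone. The part of carried-over cancer cell RNA in the results was not tested.

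Most measured genes differed between WT co-cultures with CXCR2i and hepatocytes alone, and large differences were more often rises. At a Benjamini-Hochberg adjusted p below 0.05 (limma on log2(FPKM + 1)), 7610 genes differed, 66.8% of those tested. Of these, 3657 rose (32.1%) and 3953 fell (34.7%). At least a 2-fold rise was seen for 624 genes (5.48%) and at least a 2-fold fall for 472 (4.14%). At 8-fold, 49 rose and 13 fell. The filter took part in this: 371 genes averaged below 1 FPKM over the 9 libraries without the inhibitor and passed only through the inhibitor groups. Of these 371 genes, 295 rose, and of the other 11024 genes 3362 rose and 3948 fell. The counts of 2-fold and 8-fold changes include the 371 genes. The 12 largest rises included the interferon-stimulated genes Ifit1, Trim30a, Ifitm3, Usp18, Irf7 and Isg15, the hypoxia-responsive hormone gene Adm and the heat shock gene Hspa1b. The 12 largest falls included the transcription factor gene Fos, the cytokine gene Il11 and the chemokine genes Cxcl5 and Cxcl1. All fold changes below are differences on the log2(FPKM + 1) scale, which understates the change of genes at low levels. Scaled to the plain sum of fragments in place of the divisor in the deposited FPKM, 56.4% of the calls were rises, against 48.1%, and the median over all tested genes was 0.05, against -0.02.

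**Figure D1:**
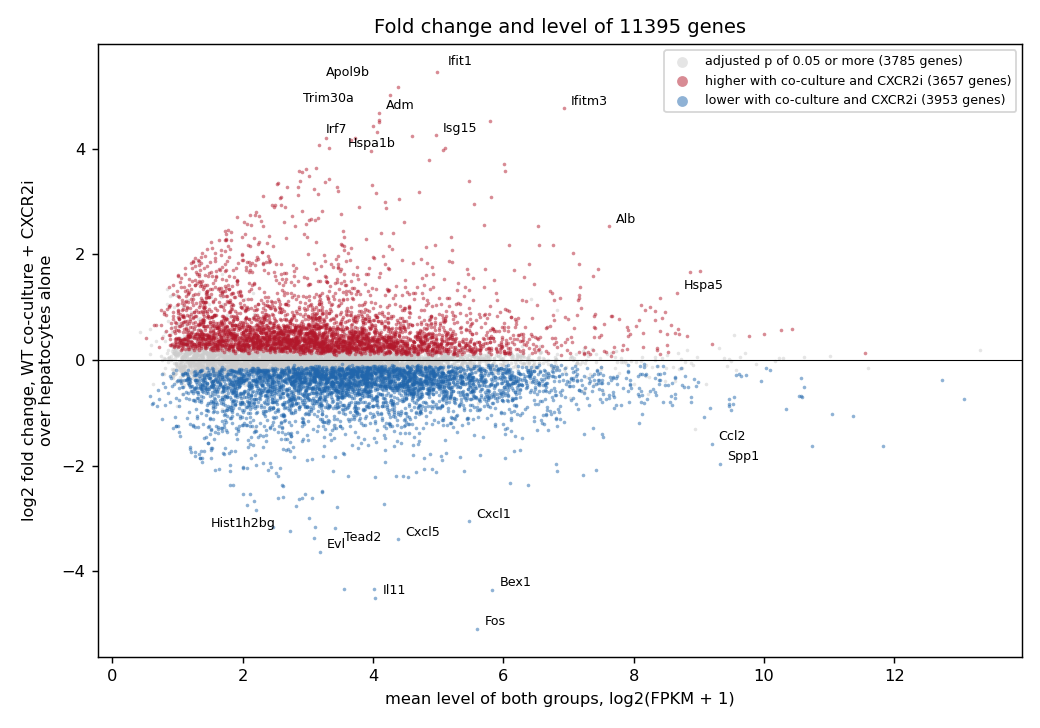
Difference between WT co-cultures with CXCR2i and hepatocytes alone for 11395 genes. Each point is a gene, placed by its mean level (log2(FPKM + 1), horizontal axis) and by its log2 fold change (vertical axis, above 0 for genes higher in WT co-cultures with CXCR2i). Ifit1 stands at 5.46 and Fos at -5.10, and the rises reach further from 0 than most falls.

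Interferon-stimulated genes rose as a group. Of 49 listed, 47 passed the filter, 44 rose, 2 fell and 1 did not pass the test, with 39 rises of at least 2-fold. The median log2 fold change of the 47 was 1.96, against -0.02 for all tested genes. The filter took part in this count. Over the 9 libraries without the inhibitor, 21 of the 47 averaged below 1 FPKM, among them Irf7, Oas3, Oas1a, Mx2 and Rsad2. These 21 passed only through the inhibitor groups, a choice that favours rises. Of the other 26 genes 23 rose and 2 fell, with a median of 1.79. The same caution holds for 371 of the 11395 tested genes, and the members concerned are given beside the lists of raised genes below. Oas2 and Oas1g were at 0 in hepatocytes alone and in WT co-cultures. With both set to a floor of 3 fragments over the 3 libraries of hepatocytes alone, the median remained 1.96. Floors of 0.0127 FPKM for Oas2 and 0.0242 FPKM for Oas1g could hardly move it on the log2(FPKM + 1) scale. The promoters of 3 of the strongly raised genes are printed here because they hold the letters GAAANNGAAA (TTTCNNTTTC on the other strand), the core of the interferon-stimulated response element to which a complex with Stat2 and Irf9 is known to bind. Each line gives the 250 bases before the start site from RefSeq (GRCm38.p6), 5′ to 3′ on the gene's strand, with the matches in capitals. Ifit1 lies at chr19:34640639-34640888 (+ strand) with 2 matches, Trim30a at chr7:104465194-104465443 (- strand) with 1, and Isg15 at chr4:156200819-156201068 (- strand) with 3 that overlap.
Ifit1: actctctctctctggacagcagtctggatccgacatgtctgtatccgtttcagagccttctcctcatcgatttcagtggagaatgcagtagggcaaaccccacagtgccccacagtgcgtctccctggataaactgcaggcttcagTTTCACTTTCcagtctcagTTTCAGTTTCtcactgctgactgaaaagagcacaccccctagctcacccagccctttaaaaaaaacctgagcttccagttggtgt
Trim30a: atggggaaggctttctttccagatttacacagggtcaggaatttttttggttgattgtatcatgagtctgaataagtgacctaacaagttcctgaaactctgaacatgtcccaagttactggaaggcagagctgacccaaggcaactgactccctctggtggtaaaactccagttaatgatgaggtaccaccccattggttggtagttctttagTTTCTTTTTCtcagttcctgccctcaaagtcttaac
Isg15: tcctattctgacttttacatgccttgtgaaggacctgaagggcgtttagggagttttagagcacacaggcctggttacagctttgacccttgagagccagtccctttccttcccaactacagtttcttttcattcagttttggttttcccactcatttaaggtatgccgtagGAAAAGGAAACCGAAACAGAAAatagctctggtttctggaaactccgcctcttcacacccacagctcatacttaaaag

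The last base of each match lay 95 and 76 bases before the start site in Ifit1 (-95 and -76), 27 bases before it in Trim30a (-27), and at -69, -63 and -57 in Isg15. A window was found by symbol for 37 of the 47 tested interferon-stimulated genes, and 17 of these (45.9%) held the letters. Of 8319 tested genes with a window, 262 held them (3.15%), against 42 of the 422 with a window that rose at least 2-fold (9.95%) and 12 of the 327 that fell at least 2-fold (3.67%). A match is a description of these letters and shows neither binding nor a cause.

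Ifit1 (chr19:34640871-34650009), an antiviral protein that binds foreign RNA, was at 62.4, 56.9 and 63.0 FPKM in WT co-cultures with CXCR2i, against 0.331, 0.378 and 0.515 FPKM in hepatocytes alone. All 3 libraries with the inhibitor were high and all 3 libraries of hepatocytes alone were low, without overlap. The difference was 5.46 ± 0.10 (SE; adjusted p = 7.59e-15). Ifitm3 (chr7:141009586-141010770), which blocks virus entry at the endosome, was at 241.5, 243.2 and 218 FPKM in WT co-cultures with CXCR2i, against 5.96, 8.51 and 8.80 FPKM in hepatocytes alone. It was the most abundant of the strongly raised interferon-stimulated genes, and its groups did not overlap (4.76 ± 0.20, adjusted p = 3.53e-11). Trim30a (chr7:104409025-104465193), a tripartite-motif protein that is not on the list, was at 37.0, 33.8 and 37.7 FPKM in WT co-cultures with CXCR2i and at 0.0285, 0.305 and 0.107 FPKM in hepatocytes alone (5.02 ± 0.09, adjusted p = 7.00e-15). Trim30a also passed the filter only through the inhibitor groups, which favours a rise.

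The signalling members rose with the effectors. Irf7 (chr7:141262706-141266481), the transcription factor that amplifies type I interferon production, averaged 29.5 ± 1.88 FPKM in WT co-cultures with CXCR2i and 0.410 ± 0.111 FPKM in hepatocytes alone (SD, n = 3 each; 4.44 ± 0.07, adjusted p = 5.77e-15). Stat2 averaged 31.2 ± 0.641 FPKM in WT co-cultures with CXCR2i and 3.37 ± 0.245 FPKM in hepatocytes alone (SD, n = 3 each), a rise of 2.89 ± 0.05. Irf9 rose by 1.90 ± 0.05. The negative regulators rose as well: Usp18 (chr6:121245906-121270917), which removes Isg15 from proteins and restrains the receptor, was at 30.4, 31.7 and 32.6 FPKM in WT co-cultures with CXCR2i and at 0.546, 0.494 and 0.263 FPKM in hepatocytes alone. Isg15 (chr4:156199424-156200818), the ubiquitin-like modifier itself, was at 63.4, 61.9 and 49.2 FPKM in WT co-cultures with CXCR2i and at 1.78, 2.74 and 1.81 FPKM in hepatocytes alone (4.25 ± 0.15, adjusted p = 8.53e-12). The counting tool and strandedness are not given, so reads of Irf7 and Phrf1, and of Usp18 and Gm44148, which overlap, cannot be told apart.

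Among the antiviral enzymes, Oas3, which makes the second messenger of the RNase L pathway, averaged 16 ± 0.374 FPKM in WT co-cultures with CXCR2i and 0.00526 ± 0.00466 FPKM in hepatocytes alone (4.08 ± 0.06). Oas1a rose by 4.01, Mx2, a dynamin-like GTPase, by 3.34 and Rsad2, which makes a chain-terminating nucleotide, by 2.70. Near-identical copies make the split between Oas1a and Oas1g, Ifit3 and Ifit3b, and Apol9a and Apol9b uncertain. Outside the list, Apol9b (chr15:77729039-77736382) stood at 39.2, 41.7 and 37.6 FPKM in WT co-cultures with CXCR2i and at 0.0965, 0.206 and 0.0805 FPKM in hepatocytes alone, while Apol9a stood at 15.9, 17.6 and 19.0 FPKM in WT co-cultures with CXCR2i and was listed at 0 in hepatocytes alone. Apol9b and Apol9a both passed the filter only through the inhibitor groups. The 2 interferon-stimulated genes that fell were the interferon-inducible GTPases Ifi47 (-0.46) and Irgm1 (-0.14), and Ifitm2 did not pass the test (0.01, adjusted p = 0.891). In hepatocytes alone these averaged 25.1 FPKM for Ifi47, 23.2 FPKM for Irgm1 and 110.9 FPKM for Ifitm2.

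The ligands themselves were sparse, and they were looked up after the values above had been seen, without a test. Of 19 type I, II and III interferon genes in the table, all 19 had no fragment in hepatocytes alone. Ifnb1, the first interferon made by most cells, had 27, 22 and 19 fragments in WT co-cultures with CXCR2i, or 2.05, 1.74 and 1.64 FPKM, against 0 in hepatocytes alone. Set against a floor of 3 fragments over the group, that is at least 25.7-fold higher, an estimate that covers counting error only. Ifnb1 was also at 0 in WT co-cultures, and KO co-cultures with CXCR2i had 0.548, 0.334, 1.28 and 0.562 FPKM. The 13 interferon alpha genes together had 6 fragments in WT co-cultures with CXCR2i, all of Ifna13 in replicate 1, and 0 in hepatocytes alone. Ifng, the type II ligand, was at 0 in all of these libraries.

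The receptors moved little. Ifnar1 was at 12.9, 12.5 and 13.1 FPKM in WT co-cultures with CXCR2i and at 12.2, 12.2 and 12.3 FPKM in hepatocytes alone, which did not pass the test (0.06, adjusted p = 0.329). Ifnar2 rose by 0.28 (adjusted p = 0.00303). Of the type II receptor, Ifngr1 rose by 0.47 while Ifngr2 fell by 0.59. Of the type III receptor, Ifnlr1 rose by 0.34 and Il10rb by 0.21.

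Genes of class I antigen presentation, which are also interferon targets, moved up. Of 19 listed, 16 passed the filter, 12 rose, 1 fell and 3 did not pass the test, with a median of 0.96. Without 4 members that passed only through the inhibitor groups, among them Psmb8 and Nlrc5, 8 of 12 rose and 1 fell (median 0.70). H2-K1, a class I heavy chain, was at 152.1, 149.7 and 152.8 FPKM in WT co-cultures with CXCR2i, against 61.0, 62.7 and 62.9 FPKM in hepatocytes alone (1.27 ± 0.06, adjusted p = 1.41e-10). The light chain B2m averaged 1458 ± 48.7 FPKM in WT co-cultures with CXCR2i and 984 ± 30.0 FPKM in hepatocytes alone (0.57 ± 0.04). The peptide transporter Tap1, which overlaps Psmb9, rose by 2.20, the immunoproteasome subunit Psmb8 by 1.91 and the class I transactivator Nlrc5 by 1.46. Another immunoproteasome subunit, Psmb10, fell by 0.62. Class I genes are close paralogs, so their split between heavy chains is uncertain.

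**Figure D2:**
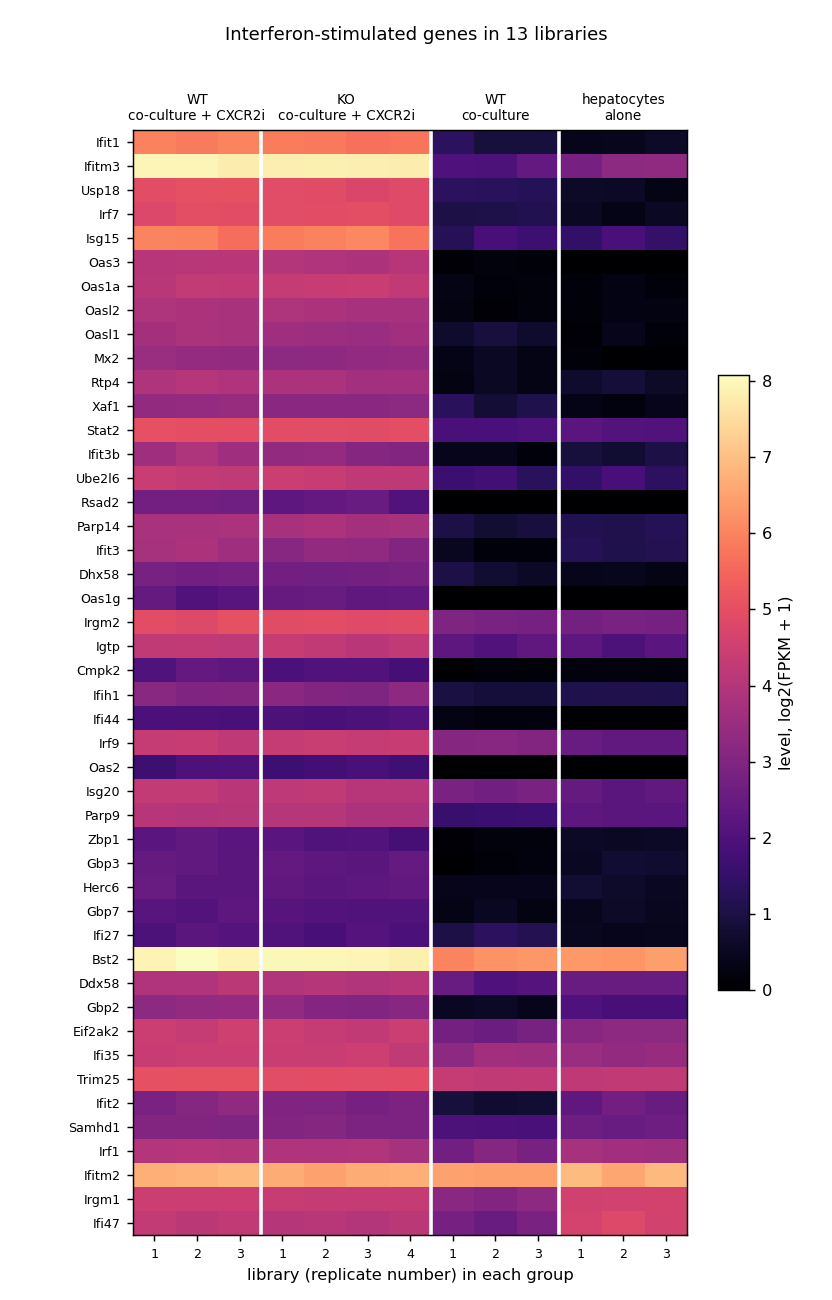
Level of interferon-stimulated genes in each library. Rows are 46 tested genes and columns are 13 libraries, in the order WT co-cultures with CXCR2i, KO co-cultures with CXCR2i, WT co-cultures and hepatocytes alone, and the colour is log2(FPKM + 1). Both inhibitor groups are brighter than the other 2 groups in most rows, and Ifit1 is at 56.9 to 63.0 FPKM in WT co-cultures with CXCR2i and at 0.331 to 0.515 FPKM in hepatocytes alone.

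Genes of differentiated hepatocytes rose together. Of 30 secreted hepatocyte proteins, 21 passed the filter, 19 rose, 15 of them at least 2-fold, none fell and 2 did not pass the test, with a median log2 fold change of 1.39. Without replicate 1 of hepatocytes alone 19 rose and 1 fell. Of the 21, 4 passed only through the inhibitor groups, and of the other 17 genes 15 rose and none fell, with the median at 1.39. Of the 25 hepatocyte markers, 18 passed the filter, 16 rose and none fell (median 1.79); without 5 members that passed only through the inhibitor groups, 11 of 13 rose and the median was 1.14. Some genes are on both lists. Alb (chr5:90460897-90476602), which encodes serum albumin, was at 342.8, 323.1 and 338 FPKM in WT co-cultures with CXCR2i, against 57.8, 58.4 and 55.0 FPKM in hepatocytes alone. The groups stood far apart, by 2.53 ± 0.06 (adjusted p = 5.23e-14). Apoa1, the main apolipoprotein of high-density lipoprotein, was at 60.4, 66.2 and 60.8 FPKM in WT co-cultures with CXCR2i and at 4.41, 2.43 and 2.53 FPKM in hepatocytes alone (3.98 ± 0.17, adjusted p = 6.49e-11).

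Fetub, which inhibits metalloproteases, was the secreted protein with the largest rise (4.17 ± 0.07): it averaged 23.1 ± 0.718 FPKM in WT co-cultures with CXCR2i and 0.340 ± 0.164 FPKM in hepatocytes alone (SD, n = 3 each). Ahsg (3.78), Apoc1 (4.0), the fibrinogen chains Fga (2.45) and Fgb (1.96), and Ttr, the thyroid hormone carrier (1.14), rose too. Apob was at 43.5, 40.0 and 42.8 FPKM in WT co-cultures with CXCR2i and at 44.8, 49.5 and 49.0 FPKM in hepatocytes alone. Neither Apob (adjusted p = 0.0626) nor Gc, the vitamin D carrier, passed the test. The acute phase and complement list was divided, with 9 rises and 9 falls among 19 genes tested of 30 listed. Of these, 5 risers passed only through the inhibitor groups, and of the other 14 genes 4 rose and 9 fell (median -0.27). C4b (2.13), of which a near-identical copy exists, rose, while the inflammation marker Saa3 (-2.38) and the complement regulator Cfi (-1.72) fell.

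Genes of the urea cycle and of amino acid breakdown rose. Of 29 listed, 18 passed the filter, 12 rose, 2 fell and 4 did not pass the test, with a median of 0.51. Cps1 and Tat passed only through the inhibitor groups, and of the other 16 genes 10 rose and 2 fell, with a median of 0.50. Cps1, the entry enzyme of the urea cycle, averaged 10.7 ± 0.525 FPKM in WT co-cultures with CXCR2i and 0.210 ± 0.0891 FPKM in hepatocytes alone (3.27 ± 0.08, adjusted p = 2.22e-13). Ass1, a later step, was at 29.6, 33.9 and 30.1 FPKM in WT co-cultures with CXCR2i, against 3.37, 3.04 and 2.77 FPKM in hepatocytes alone (2.99 ± 0.08, adjusted p = 6.85e-13). The groups did not overlap for either gene. Tat, which breaks down tyrosine, rose by 2.93. Glud1 (-0.28) and Got2 (-0.17) fell.

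Of 35 cytochrome P450 and conjugation genes, 20 passed the filter, 16 rose and 2 fell (median 0.84). Without 5 members that passed only through the inhibitor groups, 11 of 15 rose and 2 fell (median 0.81). Sult1a1, a sulfotransferase for phenols, which overlaps Sgf29, was at 119.6, 114.3 and 120.7 FPKM in WT co-cultures with CXCR2i and at 8.43, 8.19 and 7.66 FPKM in hepatocytes alone (3.71 ± 0.10). Cyp1a1, a target of the aryl hydrocarbon receptor, rose by 3.16 and Cyp3a13 by 1.87. The hepatocyte transcription factors and nuclear receptors moved less: 22 of 25 passed the filter, 11 rose, 5 fell and 6 did not pass the test (median 0.26). Nr0b2 passed only through the inhibitor groups, and of the other 21 genes 10 rose and 5 fell (median 0.25). Cebpa, a factor of hepatocyte differentiation, was at 37.3, 36.8 and 37.5 FPKM in WT co-cultures with CXCR2i and at 10.1, 9.58 and 9.59 FPKM in hepatocytes alone (1.83 ± 0.06, adjusted p = 5.85e-12). Nr0b2, the small partner repressor of bile acid synthesis, rose by 2.38, Ppara, the receptor for fatty acids, by 1.81 and Nr1i2, a xenobiotic receptor, by 1.70. Hnf4a rose by 0.56, and Foxa2 did not pass the test (0.01, adjusted p = 0.922).

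Glycolytic and hypoxia-responsive genes rose in WT co-cultures with CXCR2i. Of 34 listed, 29 passed the filter, 24 rose, 14 of them at least 2-fold, 1 fell and 4 did not pass the test, with a median of 0.92. Without 4 members that passed only through the inhibitor groups, Adm and Pfkp among them, 20 of 25 rose and 1 fell, with a median of 0.86. Adm (chr7:110627661-110629820), which encodes the vasodilator adrenomedullin and overlaps Gm28863, was at 32.5, 33.0 and 29.9 FPKM in WT co-cultures with CXCR2i, against 0.506, 0.310 and 0.0604 FPKM in hepatocytes alone. It rose by 4.68 ± 0.13 (adjusted p = 7.02e-13). Bnip3, a receptor for the removal of mitochondria, was at 105.9, 90.0 and 104 FPKM in WT co-cultures with CXCR2i and at 10.6, 10.6 and 11.3 FPKM in hepatocytes alone (3.09 ± 0.08). Vegfa, the angiogenic growth factor, was at 36.6, 39.2 and 36.1 FPKM in WT co-cultures with CXCR2i and at 4.74, 5.35 and 5.80 FPKM in hepatocytes alone (2.61 ± 0.06).

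The enzymes of the pathway were raised at several steps. The glucose transporter Slc2a1 rose by 1.72, the aldolase Aldoa by 1.67, Pgk1 by 0.90 and the lactate dehydrogenase Ldha by 0.92. The muscle-type phosphofructokinase Pfkm fell by 0.67 while the liver type Pfkl rose by 1.27 and the platelet type Pfkp by 1.36. Hif1a, the oxygen-sensitive factor, was at 15.8, 13.9 and 16.4 FPKM in WT co-cultures with CXCR2i and at 17.9, 17.2 and 17.4 FPKM in hepatocytes alone, and did not pass the test (-0.18, adjusted p = 0.0955). Gapdh ranged between 3.57 and 44.1 FPKM in WT co-cultures with CXCR2i and between 1.97 and 53.2 FPKM in hepatocytes alone, a spread among replicates that leaves no usable value (adjusted p = 0.713).

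Genes of gluconeogenesis, fructose and glycogen metabolism rose in 13 of 17 tested of 23 listed, with 1 fall (median 0.67). Gckr passed only through the inhibitor groups, and of the other 16 genes 12 rose and 1 fell (median 0.61). Igfbp1, an insulin-repressed and hypoxia-responsive binding protein, averaged 28.6 ± 2.02 FPKM in WT co-cultures with CXCR2i and 0.916 ± 0.380 FPKM in hepatocytes alone (3.97 ± 0.15, adjusted p = 1.57e-11). Gckr, the regulator of glucokinase, rose by 2.80 and the liver glucose transporter Slc2a2 by 1.72. Of 19 circadian clock genes, 17 passed the filter, 14 rose, 1 fell and 2 did not pass the test (median 1.02). The repressor Per1 was at 17.2, 17.3 and 15.3 FPKM in WT co-cultures with CXCR2i and at 4.10, 4.58 and 4.25 FPKM in hepatocytes alone (1.73 ± 0.08). Per2 (1.47) and Nr1d1, which overlaps Thra (1.36), rose, and so did Arntl, the activator that they repress in the cycle (1.10). Nfil3 fell by 0.88. Harvest times are not given in the labels.

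**Figure D3:**
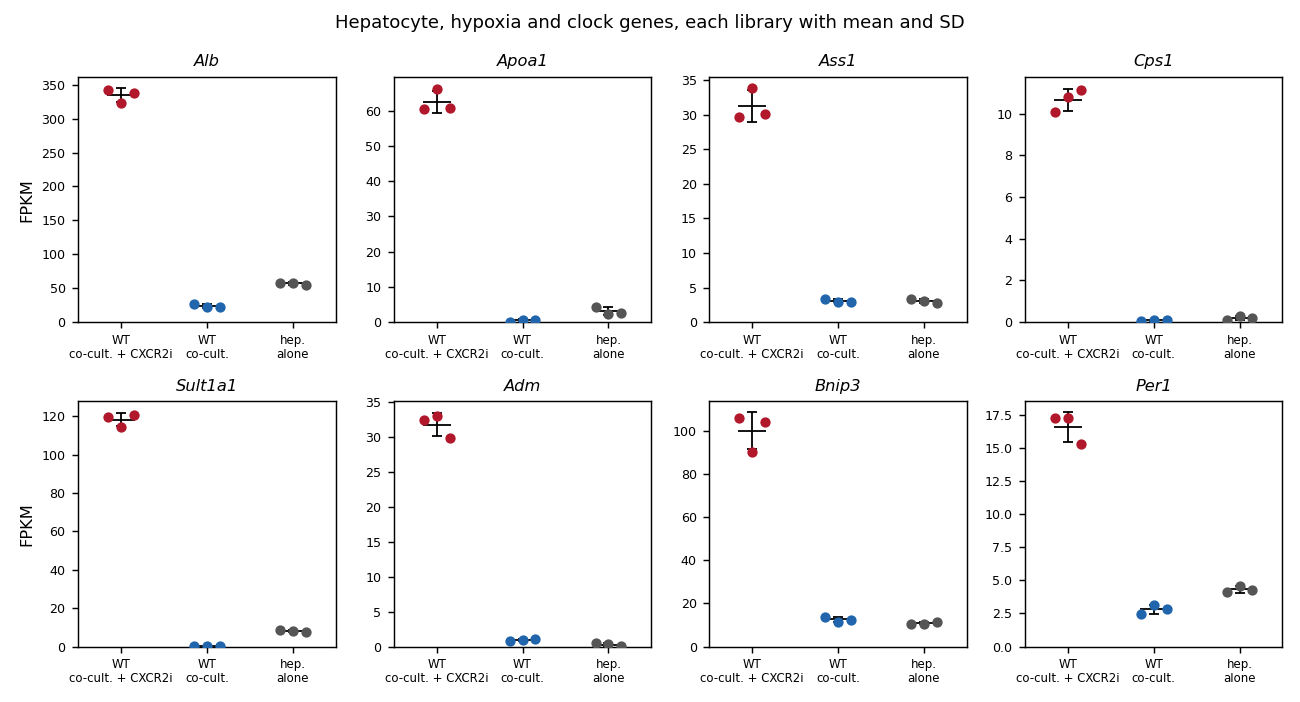
FPKM (vertical axis, from 0) of 8 hepatocyte, hypoxia-responsive and clock genes in each library of WT co-cultures with CXCR2i, WT co-cultures and hepatocytes alone, with the mean and SD of each group (n = 3 each). Alb is at 323.1 to 342.8 FPKM in WT co-cultures with CXCR2i and at 55.0 to 58.4 FPKM in hepatocytes alone.

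Genes of endoplasmic reticulum stress rose to a smaller degree. Of 28 genes of the unfolded protein response, 27 passed the filter, 23 rose, 2 fell and 2 did not pass the test (median 0.72). The promoter of Hspa5, the main chaperone of the compartment, is printed because it holds the letters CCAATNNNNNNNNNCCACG (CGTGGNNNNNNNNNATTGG on the other strand), the endoplasmic reticulum stress element to which Atf6 is known to bind. It spans chr2:34771840-34772089 (+ strand, RefSeq, GRCm38.p6), with the match, which ends at -47, in capitals.
Hspa5: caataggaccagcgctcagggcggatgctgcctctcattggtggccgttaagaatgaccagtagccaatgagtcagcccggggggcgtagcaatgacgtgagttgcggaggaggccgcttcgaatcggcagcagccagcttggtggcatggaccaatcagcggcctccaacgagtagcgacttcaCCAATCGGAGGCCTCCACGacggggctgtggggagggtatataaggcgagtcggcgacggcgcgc

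The letters were in 8 of the 22 tested genes of the list with a window (36.4%) and in 12 of 8319 tested genes (0.144%). They were in 3 of 422 genes that rose at least 2-fold (0.711%) and in 0 of 327 that fell at least 2-fold. Hspa5 (chr2:34771970-34777547) was at 574.7, 563.3 and 574.5 FPKM in WT co-cultures with CXCR2i, against 241, 232.3 and 234.4 FPKM in hepatocytes alone. The libraries of each group lay close together, and the rise was 1.27 ± 0.04 (adjusted p = 2.46e-12). Sdf2l1 (1.72) and Creld2 (1.56), which assist folding, and Herpud1, which takes part in the removal of misfolded proteins (1.11), rose. The transcription factor Xbp1 rose by 0.20 and the lectin chaperone Canx fell by 0.30.

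Targets of Atf4, the factor of the integrated stress response, rose in 23 of 32 tested of 33 listed, with 6 falls (median 0.52). Trib3, a pseudokinase that feeds back on the response, was at 58.0, 62.5 and 56.4 FPKM in WT co-cultures with CXCR2i and at 14.3, 13.1 and 12.3 FPKM in hepatocytes alone (2.07 ± 0.08). Ddit3, which overlaps Mars, rose by 1.61 and Atf4 itself by 0.25. Atf3, another target, fell by 1.58. Heat shock genes went the other way as a list, with 5 rises and 13 falls among 23 tested (median -0.21). The rises were led by Hspa1b and Hspa1a, near-identical inducible copies whose reads cannot be divided with certainty and which passed the filter only through the inhibitor groups. Hspa1b was at 41.3, 49.9 and 44.4 FPKM in WT co-cultures with CXCR2i and at 1.11, 1.72 and 1.55 FPKM in hepatocytes alone (4.24 ± 0.10), while the small heat shock protein Cryab fell by 1.33 and Hsp90aa1 by 0.66.

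Serine synthesis genes did not rise as a list. Of 6 genes tested, 1 rose, 3 fell and 2 did not pass the test (median -0.19). Over all tested genes 32.1% rose and 34.7% fell, so the counts of so short a list do not set it apart. Phgdh was at 157.6, 154.8 and 160.2 FPKM in WT co-cultures with CXCR2i, against 207.5, 207 and 203.2 FPKM in hepatocytes alone (-0.38 ± 0.04, adjusted p = 2.91e-07). Psat1 (chr19:15904678-15947337), the second enzyme, was at 79.0, 74.7 and 75.4 FPKM in WT co-cultures with CXCR2i and at 154.1, 147.3 and 155.6 FPKM in hepatocytes alone, a fall of -0.99 ± 0.05 (adjusted p = 2.36e-10) with no overlap. Psph, the last enzyme, which overlaps Cct6a, rose by 0.18 (adjusted p = 0.0226), and this call was lost without replicate 1 of WT co-cultures with CXCR2i (adjusted p = 0.0859) or without replicate 3 of hepatocytes alone (adjusted p = 0.130). The interconversion enzymes divided, as Shmt1 fell by 0.63 and Shmt2, which overlaps Ndufa4l2, stayed at a difference of 0.00 (adjusted p = 0.959).

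Folate one-carbon, glycine and transsulfuration genes were split evenly, with 12 rises and 11 falls among 24 tested of 30 listed (median 0.04). Gnmt passed only through the inhibitor groups, and the other 23 genes had 11 rises and 11 falls (median -0.10). The rises were led by Gnmt (2.61) and by the transsulfuration enzymes Cbs (2.18) and Cth (2.10), and the falls included Tyms (-1.0), which serves DNA synthesis. Of 27 amino acid transporters, 19 passed the filter, 12 rose and 6 fell (median 0.33). Slc7a2 passed only through the inhibitor groups, and of the other 18 genes 11 rose and 6 fell (median 0.29). The arginine transporter Slc7a2 was at 11.8, 11.7 and 12.7 FPKM in WT co-cultures with CXCR2i and at 0.250, 0.302 and 0.487 FPKM in hepatocytes alone (3.28 ± 0.07). Slc1a5, which carries glutamine and serine, rose by 1.63, and the taurine transporter Slc6a6 fell by 1.15.

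Fos, an immediate early gene, had the largest fall. Immediate early genes respond quickly to growth factors and to the handling of cells. Of 30 listed, 25 passed the filter, 17 fell, 11 of them at least 2-fold, and 7 rose (median -0.56). Fos (chr12:85473890-85477273) was at 1.64, 1.82 and 1.82 FPKM in WT co-cultures with CXCR2i, against 93.4, 96.0 and 90.7 FPKM in hepatocytes alone. The groups were far apart, with a difference of -5.10 ± 0.09 (adjusted p = 7.00e-15). Ier3 (-2.19), Egr1 (-1.97) and Jun (-1.27) fell too, whereas Fosl1, a relative of Fos, rose by 1.57. Among the other large falls, the gp130 cytokine gene Il11 was at 0.254, 0.354 and 0.547 FPKM in WT co-cultures with CXCR2i and at 32.0, 28.9 and 30.1 FPKM in hepatocytes alone (-4.50 ± 0.14).

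The ligands of the inhibited receptor fell. Cxcl1 was at 8.49, 8.91 and 8.08 FPKM in WT co-cultures with CXCR2i, against 79.9, 79.1 and 75.5 FPKM in hepatocytes alone (-3.06 ± 0.10, adjusted p = 3.82e-12). Cxcl5 was at 2.38, 2.62 and 2.85 FPKM in WT co-cultures with CXCR2i, against 35.4, 37.9 and 38.2 FPKM in hepatocytes alone (-3.40 ± 0.11, adjusted p = 2.79e-12). Both were separated from hepatocytes alone by more than all spread among replicates, and Cxcl2 fell by 1.95. Mif, a cytokine that can also bind Cxcr2, rose by 0.45. Of 13 genes on this list, 9 were below the filter, among them both receptors: Cxcr1 was at 0 in all 6 libraries and Cxcr2 was at 0.0373 FPKM in replicate 1 of WT co-cultures with CXCR2i and at 0 in the other 5.

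Targets of NF-kB and chemokines fell in 15 of 27 tested of 37 listed, with 5 rises and a median of -0.33. Cxcl10, a riser, passed only through the inhibitor groups, and of the other 26 genes 4 rose and 15 fell. Ccl2 (chr11:82035571-82037453), which attracts monocytes, was at 288.2, 293.5 and 292.2 FPKM in WT co-cultures with CXCR2i, against 867.8, 873.1 and 891.9 FPKM in hepatocytes alone (-1.59 ± 0.05, adjusted p = 1.02e-12). Ccl7 (-1.80), the feedback inhibitor Tnfaip3 (-1.39) and Nfkbia (-0.72) fell. The rises included Cxcl10 (1.60), an interferon-responsive chemokine that overlaps Art3, and Irf1 (0.34). Of 27 targets of Yap and Tead, 24 passed the filter, 15 fell and 5 rose (median -0.40). Tead2, a DNA-binding partner of Yap that overlaps Cd37, was at 1.29, 0.993 and 1.05 FPKM in WT co-cultures with CXCR2i and at 18.3, 16.9 and 19.3 FPKM in hepatocytes alone (-3.18 ± 0.09), and the matricellular gene Cyr61 fell by 2.08.

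Proliferation genes fell almost without exception. All 32 tested DNA replication genes of 33 listed fell, 16 at least 2-fold (median -1.0), and of 30 mitosis genes 29 fell and Cenpa did not pass the test (median -0.80; for Cenpa -0.04, adjusted p = 0.640). Rrm2, a subunit of the enzyme that makes deoxynucleotides, was at 10.6, 12 and 10 FPKM in WT co-cultures with CXCR2i and at 43.3, 39.6 and 43.6 FPKM in hepatocytes alone (-1.87 ± 0.07). Mki67 (chr7:135689784-135716361), the proliferation marker, was at 15.2, 14.4 and 15.1 FPKM in WT co-cultures with CXCR2i and at 20, 22.7 and 22.1 FPKM in hepatocytes alone (-0.50 ± 0.05, adjusted p = 9.99e-07). Cdkn2a, which encodes cell cycle inhibitors, also fell (-2.20).

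Of the 15 mitochondrially encoded genes 14 fell, 7 at least 2-fold (median -0.94), beside the lower mitochondrial share of fragments given above. The complex I subunit mt-Nd1 was at 1820, 1698 and 1777 FPKM in WT co-cultures with CXCR2i and at 5105, 5743 and 5615 FPKM in hepatocytes alone (-1.63 ± 0.07), and the ribosomal RNA mt-Rnr1 differed by 0.12 (adjusted p = 0.0447), a call that was lost without replicate 1 or 2 of either group. The call for mt-Atp8 was lost without replicate 2 of hepatocytes alone (adjusted p = 0.0563). Cytosolic ribosomal protein and translation factor genes had 18 falls and 4 rises among 39 tested (median -0.19), but quantile normalisation gave 13 of each and a median of 0.00, so no direction is given for them. Cholesterol synthesis and uptake fell in 19 of 26 tested of 31 listed (median -0.33). Idi1, an isomerase of the pathway, fell (-1.30), while the esterifying enzyme Soat2 rose (2.83). Of 17 iron genes 14 passed the filter, 7 fell and 3 rose. The iron exporter Slc40a1 was at 7.30, 6.65 and 6.81 FPKM in WT co-cultures with CXCR2i and at 34.5, 35.3 and 35.6 FPKM in hepatocytes alone (-2.19 ± 0.06).

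**Figure D4:**
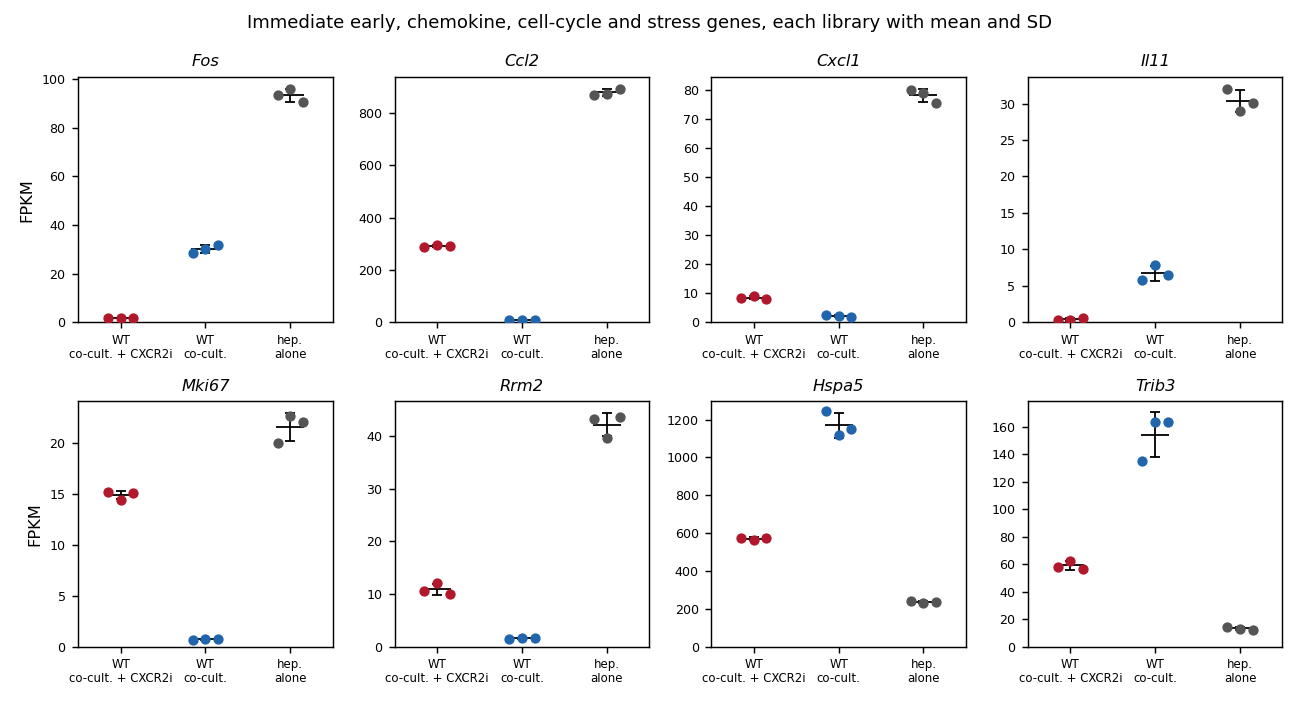
FPKM (vertical axis, from 0) of 8 genes in each library of WT co-cultures with CXCR2i, WT co-cultures and hepatocytes alone, with the mean and SD (n = 3 each). Fos, Ccl2, Cxcl1, Il11, Mki67 and Rrm2 are lower in WT co-cultures with CXCR2i than in hepatocytes alone, and Hspa5 and Trib3 are higher.

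**Figure D5:**
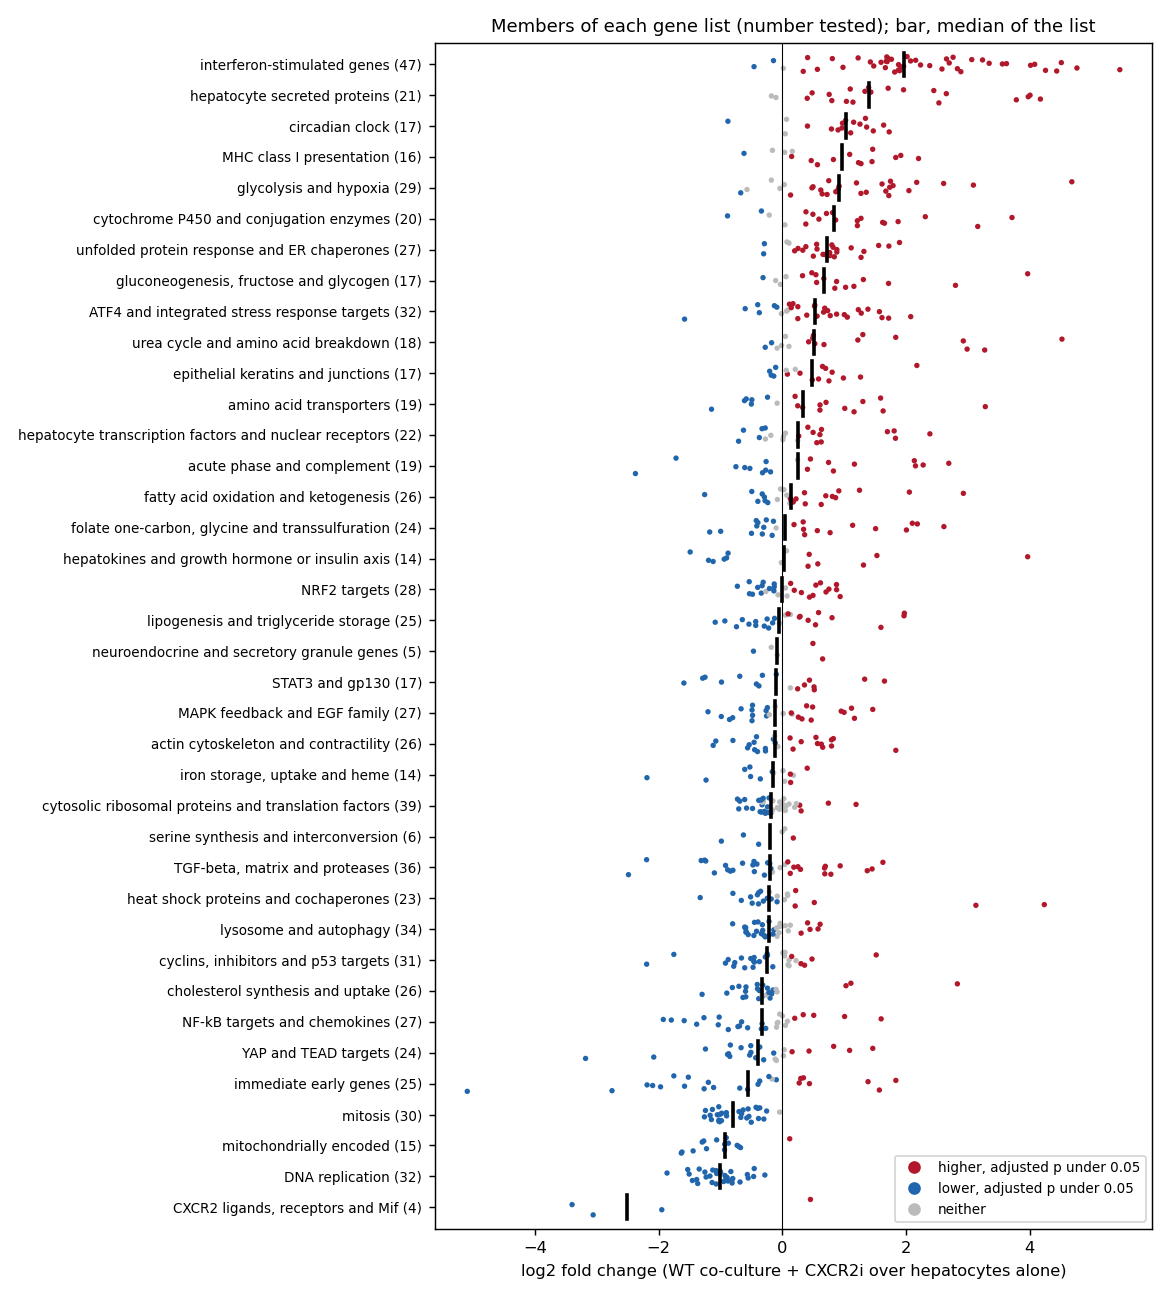
Log2 fold change (horizontal axis) of every tested member of the gene lists in WT co-cultures with CXCR2i over hepatocytes alone, 1 point a gene and 1 row a list, with the number tested in brackets. Black bars are list medians, red and blue points passed the test, and the medians run between 1.96 for interferon-stimulated genes and -2.51 for the CXCR2 list.

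To see which of these differences separate WT co-cultures with CXCR2i from WT co-cultures that lack the inhibitor, both groups were compared directly. This comparison shares the libraries of WT co-cultures with CXCR2i with the main one, so the values stand side by side and are not independent. In it 7584 genes differed (66.6%), with 3821 rises (33.5%) and 3763 falls (33%). The balance turned with the scaling: 50.4% of the calls were rises, against 43.8% with quantile normalisation, 47.6% scaled without mitochondrial and the 50 most abundant genes and 54.7% scaled to the plain sum. All 47 tested interferon-stimulated genes rose (median 2.17), and so did all 26 that did not pass only through the inhibitor groups. Ifit1 was at 1.52, 0.874 and 0.862 FPKM in WT co-cultures, 4.90 ± 0.10 below WT co-cultures with CXCR2i. Ifitm3 differed by 5.74 ± 0.20. Of the 21 secreted hepatocyte proteins 20 rose and 1, Rbp4, fell by 0.62. Without the 4 that passed only through the inhibitor groups, 16 of 17 rose and 1 fell. Alb differed by 3.74 ± 0.06 and Apoa1 by 5.43. Glycolysis and hypoxia genes rose in 24 of 29 and fell in 2 (median 1.30), while Vegfa did not pass the test (-0.12, adjusted p = 0.0855). Without the 4 members of that list that passed only through the inhibitor groups, 20 of 25 rose and 2 fell.

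Other lists had a different direction against WT co-cultures than against hepatocytes alone. Genes of the unfolded protein response fell in 26 of 27 and rose in none (median -0.84), and Hspa5 differed by -1.03 ± 0.04. Targets of Atf4 fell in 22 of 32 and rose in 3, with Trib3 at -1.36. Mitosis genes rose in all 30, with a median of 2.01 and with Mki67 higher by 3.21. DNA replication genes rose in 27 of 32 and fell in 1. NF-kB targets and chemokines rose in 24 of 27 and fell in 1, or in 23 of 26 and 1 without the member that passed only through the inhibitor groups. All 4 tested genes of the CXCR2 list rose. Ccl2 was at 288.2, 293.5 and 292.2 FPKM in WT co-cultures with CXCR2i, against 8.73, 9.92 and 10 FPKM in WT co-cultures (4.79 ± 0.05, adjusted p = 2.26e-17). For Ccl2, Mki67 and Hspa5, the libraries of WT co-cultures with CXCR2i lay between those of WT co-cultures and hepatocytes alone.

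Among the genes that fell against hepatocytes alone, some were also lower than in WT co-cultures. Fos was at 28.3, 30.1 and 31.8 FPKM in WT co-cultures (-3.49 against them). The mitochondrial gene mt-Nd1 differed by -1.56 from WT co-cultures, with mitochondrially encoded genes lower in 12 of 15 and higher in 1. Psat1 differed by -0.75 and Phgdh by -0.34. In the serine list 5 of 6 genes fell against WT co-cultures and none rose, including Psph (-1.21), which was higher than in hepatocytes alone by 0.18. Htra1, a secreted serine protease that overlaps Fgfr2, was at 0.711, 0.846 and 0.562 FPKM in WT co-cultures with CXCR2i, against 16.4, 15.1 and 15.8 FPKM in WT co-cultures (-3.30 ± 0.08).

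With the inhibitor present, the genotype of the cancer cells made a small difference. Between WT co-cultures with CXCR2i and KO co-cultures with CXCR2i, 263 genes differed (2.31%), 74 higher and 189 lower, and a 2-fold difference was reached by 0 of the higher and 2 of the lower genes (limma; 1398 genes had an unadjusted p below 0.05). This count was lower with any 1 library left out: it was 123 without replicate 1 of WT co-cultures with CXCR2i, 142 without replicate 2 and 125 without replicate 3. It was 155, 166, 167 and 221 without replicates 1, 2, 3 and 4 of KO co-cultures with CXCR2i. Atf3 was at 11.1, 9.33 and 9.17 FPKM in WT co-cultures with CXCR2i, against 24.0, 24.1, 24.0 and 23.4 FPKM in KO co-cultures with CXCR2i (-1.20 ± 0.06, adjusted p = 6.49e-08). Jun, its partner in the AP-1 family, differed by -0.59 and Fos by -0.39.

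Secreted hepatocyte proteins were lower in 9 of 21 and higher in none in WT co-cultures with CXCR2i than in KO co-cultures with CXCR2i. Alb differed by -0.46 ± 0.05 (adjusted p = 3.82e-04) and Cps1 by -0.57. Of the interferon-stimulated genes 3 of 47 were higher, Ifit3 (0.53), Ifit3b (0.48) and Rsad2 (0.39), and none was lower. The number was 1 without any single replicate of WT co-cultures with CXCR2i and also without replicate 1 of KO co-cultures with CXCR2i, and the call for Ifit3 was lost with a pseudocount of 0.1 (adjusted p = 0.272). Outside the lists, the interferon-inducible gene Ifi207 was at 14.1, 12.9 and 14.6 FPKM in WT co-cultures with CXCR2i, against 7.73, 7.99, 8.89 and 8.69 FPKM in KO co-cultures with CXCR2i (0.68 ± 0.10, adjusted p = 0.00322). None of the 6 genes of the serine list differed between WT co-cultures with CXCR2i and KO co-cultures with CXCR2i. With 2.31% of all tested genes called in this comparison, that is near the common share and says little about so short a list.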

How the data were processed

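Total RNA was extracted with an RNeasy mini kit and sequenced with Novogene protocols, per the labels' protocols. HISAT2 and the builds GRCm38 and mm10 are named, per the submitters' processing notes, without versions; no source used here gives the counting tool, the annotation release or the strandedness. The authors deposited 1 table of FPKM values with gene lengths. FPKM times gene length gave whole fragments within 0.1 for 100% of the values, so depth could be recovered. Confidence limits from fragments cover counting error only.

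Log2(FPKM + 1) was fitted with limma 3.58.1 (R 4.3.3) over all 16 libraries with 1 mean per group (11 residual degrees of freedom), for genes with a mean of at least 1 FPKM, and p-values were adjusted by Benjamini-Hochberg over the 11395 genes. Calls had an adjusted p below 0.05. The text names the 12 largest changes each way, up to 5 genes per list over 38 lists, 8 each way against WT co-cultures and 5 each way against KO co-cultures with CXCR2i; others were chosen after their values were seen. Members and lists were chosen with earlier results of these data known. Promoter sequences were matched by symbol to RefSeq (GRCm38.p6). The fit was tested on simulated data. Alternatives covered the pseudocount, filter, scaling, test, fold threshold, libraries and replicate block. Gene symbols that had been turned into dates (27) were not used by name. Results for some genes that the rule names are not reported here.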

Additional observations from a re-analysis of the deposited data

Results flagged for a closer look

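Against hepatocytes alone, 7 of 15 genes examined moved in opposite directions in WT co-cultures with CXCR2i and in WT co-cultures without it. The 15 genes had been picked for the largest differences between WT co-cultures with CXCR2i and WT co-cultures, among genes called in both comparisons. The size of the differences below was therefore fixed by that choice, and the 7 of 15 says nothing about genes at large. The log2 difference between both effects, from the direct comparison with limma, was 6.57 for the sulfotransferase gene Sult1a1, 5.74 for the antiviral gene Ifitm3, 5.43 for the apolipoprotein gene Apoa1 and 4.97 for Hspa1b. It was -3.30 for the protease gene Htra1, -2.97 for Gfra1, a receptor for glial-derived growth factors, and -2.91 for Podxl, a surface sialomucin. Podxl was at 0.570, 0.834 and 0.850 FPKM in WT co-cultures with CXCR2i, 12.6, 11.8 and 12 FPKM in WT co-cultures and 9.38, 9.57 and 9.68 FPKM in hepatocytes alone.

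One library of KO co-cultures with CXCR2i stood apart for the cytoskeletal gene Add2, at 9.66 FPKM, while the other 3 were at 9.33 to 9.36 FPKM. Its gap to the nearest library was larger, as a share of the range, than Dixon's limit for 4 libraries. Chance passes that limit in about 1 of 20 groups, and 9 genes were examined.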

How the results depend on the processing

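The main count of 7610 genes was 7067 to 7266 when 1 library was left out, 7578 with limma-voom on recovered fragments, 7572 with a pseudocount of 0.1 and 9093 without the filter. With the filter at a mean of 5 FPKM, 334 genes rose and 272 fell at least 2-fold. Tested against a log2 change of 0.5, 1938 genes passed in the main comparison, 2048 against WT co-cultures and 1 against KO co-cultures with CXCR2i. That last comparison gave 123 to 221 genes with 1 library left out, 178 with a pseudocount of 0.1 and 330 with limma-voom. Its calls for Nr0b2, Ifit3 and Cyp2d26 were lost at a pseudocount of 0.1 (adjusted p = 0.571, 0.272 and 0.116). The cause was not tested. No call of the genes named by the rule reversed its direction under these settings, while the balance of rises and falls over all genes turned with the scaling.

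Same-numbered libraries of WT co-cultures with CXCR2i and hepatocytes alone deviated together with r of 0.0995, 0.00397 and -0.00254, so the numbers were not taken as pairs. With the replicate block 7606 genes were called in the main comparison, 7573 against WT co-cultures and 193 against KO co-cultures with CXCR2i. Of the main calls, 56.4% were rises when scaled to the plain sum and 53.1% without mitochondrial and the 50 most abundant genes.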

Other observations

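These genes were picked after their values were seen and are described only. Several genes known as glucocorticoid targets were higher in WT co-cultures with CXCR2i than in hepatocytes alone. No list of such targets was counted, so how many went the other way is not given. Tsc22d3, which encodes a leucine zipper protein, was at 44.0, 46.3 and 48.1 FPKM in WT co-cultures with CXCR2i and at 4.55, 3.48 and 4.62 FPKM in hepatocytes alone (3.18 ± 0.07, limma adjusted p = 7.10e-14). Zbtb16, a zinc finger repressor, differed by 3.64 ± 0.07 and Fkbp5, a cochaperone of the glucocorticoid receptor, by 1.62 ± 0.04. The metal-binding gene Mt1 differed by 1.69 ± 0.09. For each of the 4 genes, every library of WT co-cultures with CXCR2i lay above every library of hepatocytes alone.

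Further interferon-inducible genes outside the list, of the Ifi200 family, were higher as well: Ifi203 differed by 3.37, Ifi202b by 2.95 and Mndal by 2.74. These genes lie in a cluster of related copies, so their split is uncertain.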
